A study of Mus musculus with 2 samples.

Results

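The data described here are the levels of 10 transcription factor genes that mark or maintain hair follicle stem cells, namely Sox9, Lhx2, Tcf7l1, Nfatc1, Nfib, Nfix, Foxc1, Runx1, Tbx1 and Vdr. They were picked by gene symbol from a table of 22383 genes, and all 10 were found. The table holds 2 RNA sequencing libraries, each from a derivative of the mouse line iHFSC2, which is made of immortalized hair follicle stem cells. The control derivative was infected with lentivirus carrying the empty vector, and the other with lentivirus carrying pwslv-shcircSmad5, a short hairpin against circSmad5, the circular RNA made from Smad5. The libraries are called the control library and the hairpin library below, and where a pair of values is given the control comes first. Both were put under puromycin from day 4 after infection and were stable lines at day 15, so both carry an integrated lentivirus and were drug selected. No line with a control hairpin was compared, the labels do not say whether a line is a clone or a pool, and strain and sex are not given. Each group had 1 library, which allows neither a test nor a replicate check, and a difference between separately selected lines cannot be told apart from an effect of the hairpin. The intervals below are exact 95% intervals that cover counting error only. Counts summed to 39261010 and 38382081.

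Hair follicle stem cells rest in the bulge of the follicle and rebuild the hair in each cycle. Sox9, Lhx2, Tcf7l1, Nfatc1, Nfib, Nfix, Foxc1 and Tbx1 are known as factors that hold bulge cells in the stem cell state or in rest, and Runx1 promotes their entry into growth. The vitamin D receptor Vdr is needed for hair cycling after the first coat. Markers of this programme were detected only in part in the cultured line. The basal keratin genes Krt5 and Krt14 had 2394 and 2361 FPKM (read counts scaled by gene length and by the library's total) in the control library and 2664 and 3359 in the hairpin library. Cd34, the classical surface marker of the mouse bulge, had 0 counts in both, as had the stem cell receptor gene Lgr6, and a count of 0 allows up to 3 counts in a library. The bulge keratin gene Krt15 had 253 counts in the control library and 79 in the hairpin library. The follicle stem cell gene Lgr5 was looked for by symbol and not found, so it could not be analysed here.

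Of the 10 genes, Sox9, Foxc1, Nfib and Nfix had lower levels in the hairpin library, by 1.56-fold to 1.85-fold. Tbx1, Vdr and Runx1 had higher levels, by 1.97-fold, 1.37-fold and 1.34-fold. Nfatc1 and Tcf7l1 were nearly level, and Lhx2 had almost no reads in either library. A gene is taken here as measured where either library holds 20 counts or more, which 9 of the 10 genes met. To pass the size rule, a measured gene must differ by 2-fold or more, with 1 outside its interval. None of the 9 passed it, while 14.7% of 13596 measured genes did, with 8.43% higher and 6.24% lower. Ratios are shcircSmad5 over empty vector after scaling by TMM, a trimmed mean of gene ratios. At a limit of 1.5-fold, 4 of the 9 were lower and 1 was higher, beside 12.9% of measured genes lower and 13.9% higher. Among the 10872 genes for which either library holds 100 counts or more, all 9 included, these shares were 11.8% and 9.13%. Nfib, 1 of the 4 lower genes, fell short of 1.5-fold with total counts in place of TMM, and under most other alternatives given in the last section. The interval lay below 1 for 5 of the 9 and above it for 3, beside 38.5% and 34.9% of measured genes. The counts of higher genes were thus near the background. The median log2 ratio of the 9 was -0.18, beside -0.02 for all measured genes and -0.05 for protein-coding ones.

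**Figure D1:**
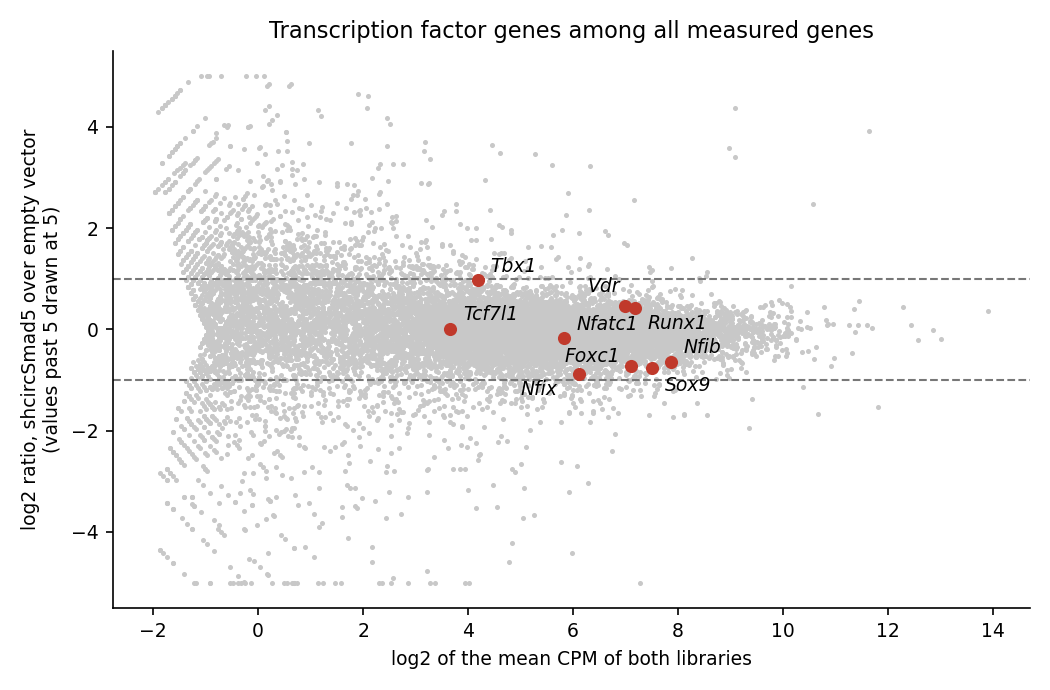
Each grey point is 1 of 13596 measured genes, placed by the log2 of its mean CPM in both libraries (x axis) and its log2 ratio of shcircSmad5 over empty vector (y axis, values past 5 drawn at 5). Red points are the 9 measured transcription factor genes, and dashed lines mark 2-fold; all 9 lie between the lines, with Tbx1 nearest to the upper one.

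The hairpin was designed against the junction of circSmad5, and its 21-base target is shown because the 10 genes can be read against it. Capitals mark bases 14 to 20, counted from the 5′ end, which a guide that is the reverse complement of the target would pair with through its seed.
hairpin target: tccagcagaggacTTGCACTa
The labels do not give the guide strand, so that orientation is an assumption. None of the GENCODE M21 transcripts holds the whole target. The seed match TTGCACT occurs in a transcript of 3 of the 10 genes, Lhx2 (5 of 7 transcripts), Nfib (3 of 12) and Runx1 (2 of 7), beside 23.2% of measured genes. Transcripts of Sox9, Foxc1, Nfix, Nfatc1, Tcf7l1, Tbx1 and Vdr hold none. Of the 4 genes lower by at least 1.5-fold, Nfib holds the match and Sox9, Foxc1 and Nfix do not. The longest stretch of the target in a transcript of any of the 10 genes was 10 bases, in Nfix. Measured genes with the match had a median log2 ratio of -0.03 and those without it -0.01.

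Sequences before annotated starts of 3 genes with differing ratios are shown, Foxc1 from the lower group and Vdr and Tbx1 from the higher group. RefSeq entries for GRCm38.p6 were matched for 7 of the 10 genes, and each sequence below is the 250 bases before an annotated start, 5′ to 3′ on the gene's strand. Tbx1 has 2 annotated starts. The Vdr start used is also an inner one, so its sequence lies within the GENCODE span of Vdr given below. Of the Foxc1 and Vdr sequences, 13 and 14 bases lie in GENCODE exons. Capitals mark matches to the motifs named below, on either strand.
Foxc1 (chr13:31806396-31806645, plus strand): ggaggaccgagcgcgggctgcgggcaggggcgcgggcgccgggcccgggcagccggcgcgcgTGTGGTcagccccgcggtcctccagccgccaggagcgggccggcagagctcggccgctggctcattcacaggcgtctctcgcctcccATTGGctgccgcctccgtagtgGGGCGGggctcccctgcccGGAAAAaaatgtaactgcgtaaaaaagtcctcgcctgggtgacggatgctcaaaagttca
Vdr (chr15:97908297-97908546, minus strand): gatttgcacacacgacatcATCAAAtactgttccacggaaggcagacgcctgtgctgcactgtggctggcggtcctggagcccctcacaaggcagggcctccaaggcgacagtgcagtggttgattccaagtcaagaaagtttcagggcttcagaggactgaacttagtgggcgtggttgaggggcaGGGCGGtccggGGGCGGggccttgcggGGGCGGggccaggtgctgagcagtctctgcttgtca
Tbx1, outer start (chr16:18590672-18590921, minus strand): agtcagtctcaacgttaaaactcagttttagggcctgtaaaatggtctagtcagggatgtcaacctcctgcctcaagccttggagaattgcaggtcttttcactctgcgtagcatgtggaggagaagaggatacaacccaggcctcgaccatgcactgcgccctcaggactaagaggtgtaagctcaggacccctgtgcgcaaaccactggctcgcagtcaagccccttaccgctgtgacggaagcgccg
Tbx1, inner start (chr16:18588900-18589149, minus strand): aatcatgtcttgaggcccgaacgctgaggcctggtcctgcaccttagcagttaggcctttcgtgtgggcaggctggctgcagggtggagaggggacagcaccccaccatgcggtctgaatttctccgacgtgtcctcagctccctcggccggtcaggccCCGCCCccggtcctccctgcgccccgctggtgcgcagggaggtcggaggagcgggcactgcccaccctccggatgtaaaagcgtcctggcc
The Foxc1 sequence holds 1 CCAAT box (CCAAT), 1 GC box (GGGCGG), 1 Runx motif (TGTGGT) and 1 Nfat motif (GGAAAA). Over all 32851 RefSeq promoters cut to the same length, 33.8%, 32.7%, 14.05% and 20.4% hold these letters. In the Vdr sequence there are 3 GC boxes and 1 Tcf motif (TTTGAT, in 10.6% of promoters). The inner Tbx1 sequence holds 1 GC box, and the outer one matched none of the motifs. Also searched, without a match in these 4 sequences, were TATAAA (12.4% of promoters), CACGTG (6.02%), the AP-1 motif TGACTCA (4.46%), the HMG box motif AACAAT (9.42%), a second Tcf form CTTTGA (13.8%), the forkhead motif GTAAACA (3.17%), the homeobox motif TAATTA (4.84%) and the full palindromic nuclear factor I motif (0.0365%). The 2 Tcf forms can overlap in a sequence. A match describes letters and not a bound site.

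Sox9 (ENSMUSG00000000567, GRCm38 chromosome 11, 112782224 to 112787760), an HMG box factor, had the highest level per length (FPKM) of the 10 genes in both libraries. It had 8829 counts (54.4 FPKM) in the control library and 5301 counts (33.4 FPKM) in the hairpin library. This is 1.70-fold lower (1.64 to 1.76), a log2 ratio of -0.77. Its share of the summed FPKM of the 10 genes was 34.7% in the control library and 25.9% in the hairpin library. Expressed as a percentile of all genes above 0, its FPKM stood at 95.8 and 92.6, so it stayed among the abundant transcripts of the line.

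Foxc1 (ENSMUSG00000050295, chromosome 13, 31806633 to 31812476), a forkhead factor, had 6544 counts (28.5 FPKM) in the control library and 4060 (18.1 FPKM) in the hairpin library. It was 1.65-fold lower (1.58 to 1.71). The nuclear factor I genes Nfib and Nfix encode related factors that keep stem cell enhancers open in the bulge. Nfib (ENSMUSG00000008575, chromosome 4, 82290173 to 82705750) had 10954 counts (18.7 FPKM) and 7180 counts (12.5 FPKM), 1.56-fold lower (1.51 to 1.60). Nfix (ENSMUSG00000001911, chromosome 8, 84699876 to 84800344) had 3448 counts (11.9 FPKM) and 1906 counts (6.76 FPKM), 1.85-fold lower (1.75 to 1.95). Its ratio was the lowest of the 9, and the upper end of its interval stayed short of 2-fold.

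Tbx1 (ENSMUSG00000009097, chromosome 16, 18580979 to 18590671), a T-box factor of stem cell renewal, moved the other way from a low level. It had 471 counts (3.41 FPKM) in the control library and 945 (7.001 FPKM) in the hairpin library, 1.97-fold higher (1.76 to 2.20). The ratio lies just under the 2-fold limit and its interval spans it. With total counts in place of TMM the log2 ratio was 1.04 and Tbx1 passed the size rule, beside 9.10% of measured genes called higher under that scaling. Vdr (ENSMUSG00000022479, chromosome 15, 97854425 to 97910630) had 4124 counts (18.6 FPKM) and 5755 counts (26.5 FPKM), 1.37-fold higher (1.31 to 1.42). Runx1 (ENSMUSG00000022952, chromosome 16, 92601466 to 92826149) had 4775 counts (10.1 FPKM) and 6520 counts (14.1 FPKM), 1.34-fold higher (1.29 to 1.39).

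Nfatc1 (ENSMUSG00000033016, chromosome 18, 80606205 to 80713071), the calcineurin-controlled factor of stem cell rest, had 2300 counts (7.84 FPKM) and 2077 counts (7.25 FPKM), with a log2 ratio of -0.18 (-0.26 to -0.09). Tcf7l1 (ENSMUSG00000055799, chromosome 6, 72626378 to 72789254), a Wnt effector that acts mainly as a repressor, had 483 counts (3.14 FPKM) and 498 counts (3.31 FPKM). Its log2 ratio was 0.01 (-0.17 to 0.20), the only interval of the 9 that holds 0. Lhx2 (ENSMUSG00000000247, chromosome 2, 38339281 to 38369733), a LIM homeobox factor, had 4 counts in the control library and 5 in the hairpin library. These are 0.0232 and 0.0297 FPKM, and the ratio of 1.22 has an interval from 0.264 to 6.17, so no difference was detectable at this depth.

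**Figure D2:**
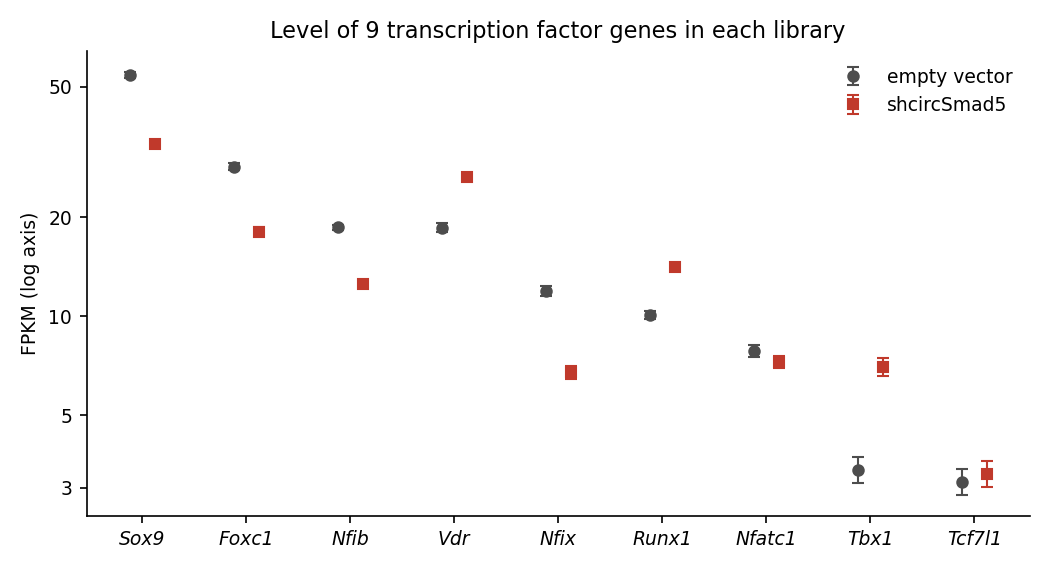
FPKM (log axis) of the 9 measured genes in the control library (grey circles) and the hairpin library (red squares), 1 library each; bars are exact 95% Poisson intervals of the count. Sox9, Foxc1, Nfib and Nfix are lower in the hairpin library, Vdr, Runx1 and Tbx1 are higher, and the bars of Nfatc1 and Tcf7l1 overlap.

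The order of the levels differed between the libraries. In FPKM, the control library ran from Sox9 through Foxc1, Nfib, Vdr, Nfix, Runx1, Nfatc1, Tbx1 and Tcf7l1 to Lhx2. There the counting intervals of Nfib and Vdr overlapped, as did those of Tbx1 and Tcf7l1. In the hairpin library Vdr stood second after Sox9, followed by Foxc1, Runx1, Nfib, Nfatc1, Tbx1, Nfix, Tcf7l1 and Lhx2. There the interval of Tbx1 overlapped those of Nfatc1 and Nfix. The summed FPKM of the 10 genes was 157 in the control library and 129 in the hairpin library.

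Relatives of each gene show which member of a family supplied most of its RNA, read per length. In the Runx family, Runx1 took 78.1% of the family's FPKM in the control library and 93.7% in the hairpin library. Runx2, a factor known from bone, had 776 and 310 counts and fell by the size rule, 2.56-fold lower (2.24 to 2.92). Runx3, with 118 and 6 counts, fell further, 20.1-fold lower (8.95 to 55.8). So 2 of the 3 measured Runx genes passed the rule as lower, beside 6.24% of all measured genes, while Runx1 had the opposite sign. Runx2 lies on chromosome 17, whose measured genes had a median log2 ratio of -0.38. Cbfb, the shared partner of all Runx proteins, had 5264 and 5113 counts, a log2 ratio of -0.07.

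In the nuclear factor I family all 4 genes were measured and none passed the rule, beside 14.7% of all measured genes. Nfib took 42.7% of the family's FPKM in the control library and 39.7% in the hairpin library, and Nfix 27.4% and 21.4%. Nfic had 2414 and 2023 counts (log2 ratio -0.28), and Nfia had 1613 and 1802 counts (0.13). Foxc1 outweighed its paralogue Foxc2, with 95.6% and 94.9% of their summed FPKM. Foxc2 had 141 and 101 counts, a log2 ratio of -0.51 (-0.89 to -0.13).

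Among the Nfat genes, Nfatc3 and not Nfatc1 had the highest level per length, with 19.1 and 14.7 FPKM. Nfatc1 held 21.6% and 22.2% of the family's FPKM. Nfatc2 rose from 407 to 878 counts, 2.11-fold higher (1.88 to 2.38), and was the only 1 of 4 measured Nfat genes to pass the rule. Among all measured genes, 8.43% passed as higher. Tcf7l1 took 75.1% and 79.3% of the FPKM of the 3 Tcf genes in the table, with Tcf7l2 at 274 and 183 counts (log2 ratio -0.61) and Tcf7 at 30 and 38. Lef1 was looked for by symbol and not found, so it could not be analysed here.

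**Figure D3:**
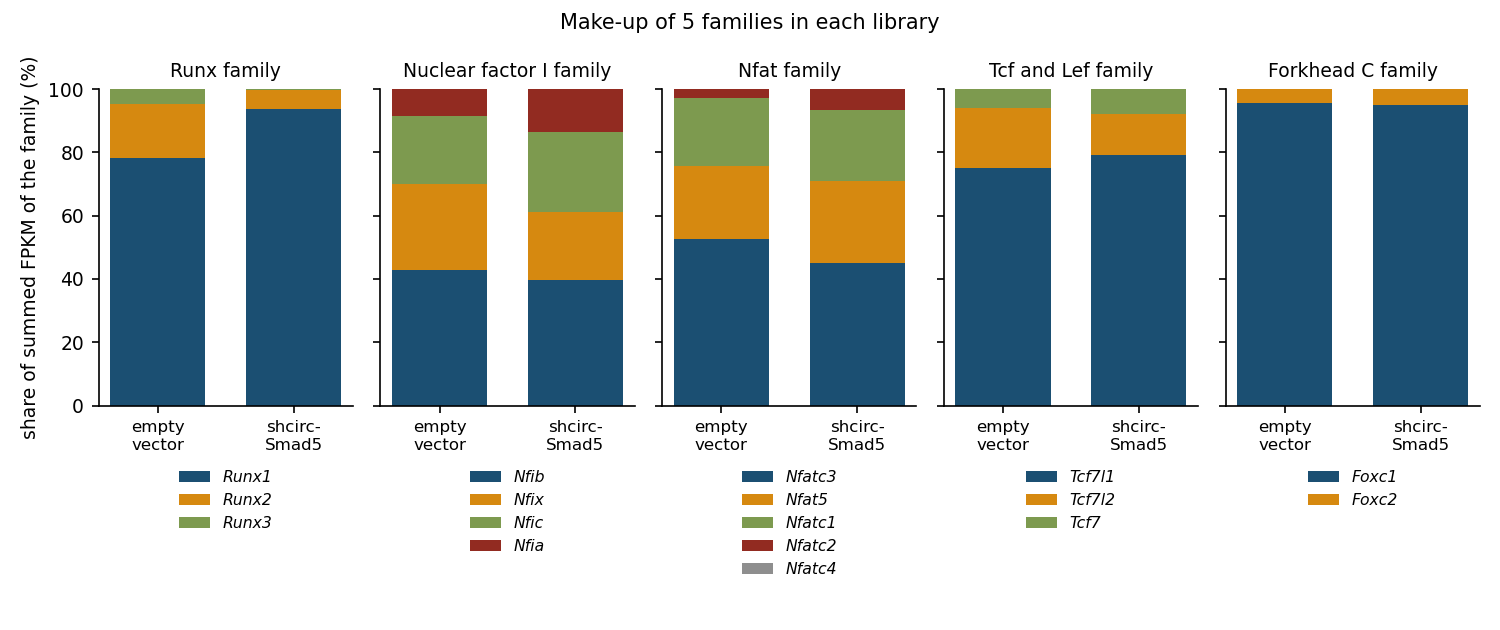
Stacked bars give the share of each gene in the summed FPKM of its family (y axis, percent) in the empty vector and the hairpin library, for 5 families. The Runx1 share is 78.1% in the empty vector and 93.7% in the hairpin library, while Foxc1 stays near 95% of its pair.

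Sox9 shared its family with 2 other abundant genes. Sox4 had 34.05 and 29.0 FPKM (log2 ratio -0.29) and Sox11 had 30.9 and 24.0 FPKM (-0.43). The 7 measured Sox genes had a median log2 ratio of -0.33, and Sox6 alone passed the rule, 3.16-fold higher (2.03 to 5.06) on 27 and 87 counts. With Lhx2 nearly absent, the LIM homeobox genes with most reads were Isl1 and Lhx6. Isl1 fell from 442 to 109 counts, 4.14-fold lower (3.35 to 5.15), and Lhx6 from 192 to 41 counts, 4.78-fold lower (3.40 to 6.87). Isl2 had 39 and 34 counts and did not pass. Of 7 measured T-box genes (median -0.33), Eomes (114 and 41 counts) and Tbx18 (65 and 19 counts) passed the rule as lower and none as higher. Beside the Sox, LIM homeobox and T-box counts stand shares of 6.24% lower and 8.43% higher among all measured genes. Tbx1 held 12.4% of the T-box FPKM in the control library and 25.0% in the hairpin library, second to Mga, whose level was 21.8 and 19.8 FPKM.

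Most partners and regulators of these factors did not pass the rule, as was true of all measured genes, of which 14.7% passed. Of 6 measured LIM cofactor genes (median -0.09) none passed. The LIM ubiquitin ligase gene Rlim had 20378 and 15157 counts, the LIM binding adaptor gene Ldb1 5089 and 5239, and Ssbp3 4749 and 3538. Of 11 Tcf cofactor genes (median -0.18), the corepressor gene Tle1 fell from 1776 to 751 counts, 2.41-fold lower (2.22 to 2.63). The beta-catenin gene Ctnnb1 had 15414 and 16089 counts, a log2 ratio of 0.03. Tle1 was also the only 1 of 6 Runx cofactor genes to pass (median -0.06). Of 16 calcineurin and Nfat regulators (median -0.00), the scaffold gene Homer2 passed with 210 and 2 counts, 107-fold lower (29.3 to 891). Homer proteins are known to compete with calcineurin for Nfat, and the paralogue Homer3 had 1589 and 1308 counts (-0.31). The calcineurin subunit genes Ppp3ca, Ppp3cb and Ppp3r1 had log2 ratios of 0.21, 0.17 and -0.13. Rcan1, a feedback inhibitor induced by Nfat, had 0.10 (-0.01 to 0.21).

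None of 11 measured vitamin D receptor partners and metabolic genes passed the rule (median -0.07), beside 14.7% of all measured genes. The corepressor gene Ncor1 had 13155 and 12756 counts, and the coactivator gene Ncoa3 had 12576 and 8591 (log2 ratio -0.58). Rxra, the main dimer partner of Vdr, had 8494 and 7195 counts (log2 ratio -0.27), and the hairless corepressor gene Hr had 10737 and 11504 (0.07). Of 7 measured genes that have been reported as targets of the 10 factors in follicle stem cells (median -0.09), the desaturase gene Scd1 fell from 4146 to 1353 counts, 3.13-fold lower (2.94 to 3.33). The cell cycle kinase gene Cdk4, repressed by Nfatc1, had 13100 and 12604 counts (-0.09). Inhbb, an activin subunit gene downstream of Sox9, had 3406 and 4929 counts, a log2 ratio of 0.50 (0.44 to 0.57), opposite in sign to Sox9. Edn2, another gene of this list, had 218 and 149 counts (-0.58).

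Of 35 other measured transcription factor genes of the follicle and epidermis, 2 were higher and 4 were lower by the size rule. Over all measured genes the shares were 8.43% higher and 6.24% lower. The median log2 ratio of the 35 was -0.18. The differentiation factor gene Zfp750 (775 and 3766 counts, 4.76-fold) and Prdm1 (397 and 925 counts, 2.28-fold) rose. Gli2, an effector of Hedgehog signals (886 and 430 counts, 2.10-fold), Barx2 (260 and 23 counts, 11.5-fold), Gata6 (222 and 111 counts, 2.04-fold) and Mycn (37 and 2 counts, 18.9-fold) fell. Klf5, an epidermal stem cell factor, had 4607 and 5700 counts (0.28), and Trp63, the master gene of stratified epithelium, 11857 and 9449 counts (-0.36). Klf5 and Trp63 did not pass the rule.

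Of 11 measured bulge markers that are not transcription factors, 5 were lower and 2 higher (median -0.53), beside 6.24% and 8.43% of measured genes. The lower genes with most counts were Fst, Dkk3, Krt15 and Sfrp1, which had 8555 and 3505, 439 and 3, 253 and 79, and 80 and 8 counts. The 2 higher genes were Angptl7, with 1 and 66 counts, and Npnt, with 12 and 31. None of the 15 basal keratinocyte markers passed (median -0.18), among them Col17a1 with 115951 and 125810 counts. The markers of other cell types that were found by symbol were scarce. Whether such cells contributed to the ratios of the 10 genes was not tested. Levels were summed over the markers found, 9 of 10 listed for fibroblasts, 5 of 7 endothelial and 5 of 9 immune. Of the dermal papilla and melanocyte lists, 4 of 10 and 3 of 9 were found. Fibroblast markers had 5.78 CPM in the control library and 2.27 in the hairpin library, endothelial markers 3.96 and 0.943, and immune markers 7.63 and 5.97. Dermal papilla markers had 5.70 and 7.29 CPM and melanocyte markers 22.2 and 11.7. The Merkel list had 24.5 and 39.4 CPM, of which Krt8 was the main part in the hairpin library. Sebaceous markers, which include lipid genes of all keratinocytes, had 1419 and 1263 CPM. By the size rule 2 of 2 measured fibroblast, 3 of 3 endothelial and 1 of 2 immune markers were lower, 1 of 6 sebaceous markers was lower, and 1 of 2 Merkel markers was higher and 1 lower. None of the 2 melanocyte markers or the 1 papilla marker measured passed. Among the listed markers, Col1a1, Dcn, Lum, Cdh5, Alpl, Lyz2 and Krt18 had 0 counts in both libraries. Other genes of the same lists were detected, among them Pdgfra (161 and 62 counts), Pecam1 (81 and 27), Cd68 (249 and 225) and Inhba (216 and 274).

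Some chromosomes differed as a whole between the lines, and the genes beside each factor were read for that reason. The medians of all measured genes were between -0.21 and 0.20 in log2 for the chromosomes of the 9 genes. Relative to its own chromosome, Sox9 had a log2 ratio of -0.86, Nfix -0.75, Foxc1 -0.51, Nfib -0.44, Runx1 0.31, Vdr 0.25 and Tbx1 0.87. Relative to the median of the 5 measured genes on either side, the values were -0.94 for Sox9, -0.54 for Nfix, -0.85 for Foxc1, -0.55 for Nfib, 0.47 for Runx1, 0.14 for Vdr and 0.98 for Tbx1. Vdr thus stood little above its surroundings, whose median was 0.31, and Nfix lay in a stretch with a median of -0.35. Tcf7l1 changed sign, with -0.13 against its chromosome and -0.21 against its neighbours. Those neighbours include the unspliced transcript models Gm37969 (1.44) and Gm37736 (1.26), which lie inside Tcf7l1 itself.

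**Figure D4:**
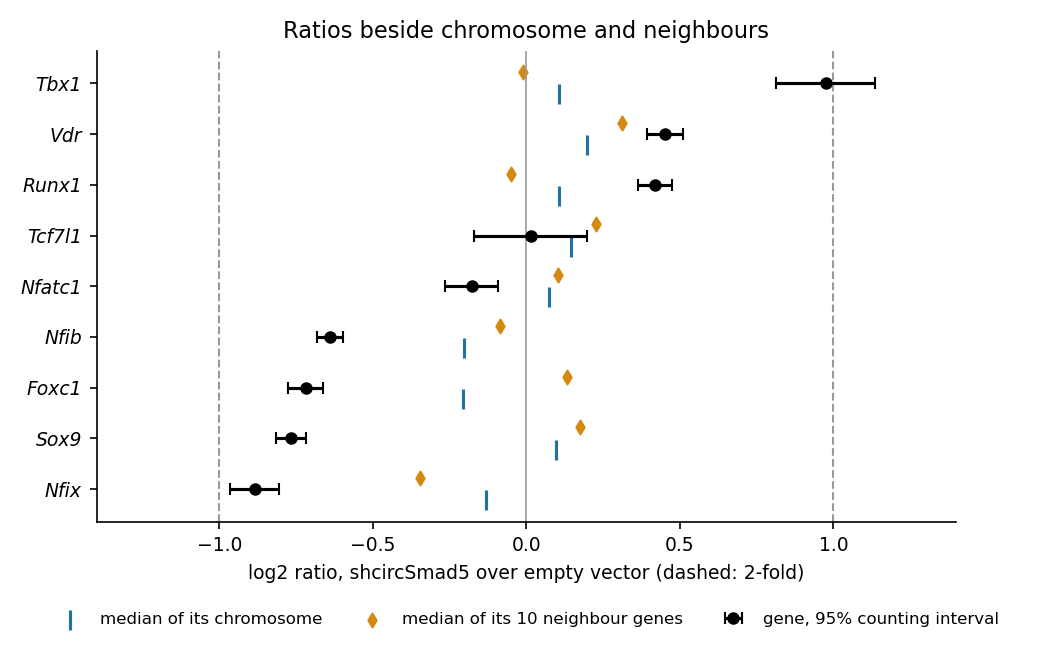
Black points give the log2 ratio of shcircSmad5 over empty vector of the 9 genes with 95% counting intervals, blue bars the median of all measured genes of the chromosome, and orange diamonds the median of 5 measured genes on either side; dashed lines mark 2-fold. The points of Sox9, Foxc1, Nfib and Nfix lie left of both medians and those of Runx1, Vdr and Tbx1 right of both.

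Of the 100 neighbours of the 10 genes, 8 passed the size rule as higher and 6 as lower, close to the shares among all measured genes. Foxc1 belongs to a cluster of forkhead genes, and both other forkhead genes among its neighbours were lower. Foxq1 fell from 1357 to 584 counts (2.37-fold lower) and Foxf2 from 222 to 94 (2.41-fold lower). The unspliced transcript model A730091E23Rik, also near Foxc1, was 2.11-fold higher on 13 and 28 counts. Around Sox9 the neighbours that passed were all higher. They were the next measured gene downstream, the long noncoding RNA 2610035D17Rik (85 and 371 counts, 4.28-fold), and the transporter genes Abca5 (5383 and 12692 counts, 2.31-fold) and Abca8b (8 and 21 counts). Near Runx1 the carbonyl reductase genes Cbr3 (117 and 24 counts, 4.98-fold) and Cbr1 (497 and 253 counts, 2.01-fold) fell. Near Vdr, Rapgef3 rose 2.03-fold and Ccdc184 fell from 21 counts to 0, with an exact interval that ends at a log2 ratio of -2.41. Syce2, near Nfix, fell 5.17-fold. Near Lhx2 the unspliced model Gm44283 had 15 and 47 counts (3.07-fold higher).

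Inside Tcf7l1 itself lie 2 unspliced transcript models on the same strand that passed as higher. Gm37969 (chromosome 6, 72635147 to 72638555) had 17 and 47 counts, 2.71-fold higher, and Gm37736 (72749113 to 72751914) had 18 and 44 counts, 2.39-fold higher, while the exon count of Tcf7l1 was level. This was not particular to Tcf7l1. Every model of the same annotation class among the neighbours of the 10 genes had a positive log2 ratio. These ran from 0.17 (Gm44146) to 1.62 (Gm44283), both near Lhx2. No neighbour of Nfib, Nfatc1 or Tbx1 passed the rule. Exons of other genes cover few bases of the 10 genes, at most 4.56% for Tcf7l1, all on the opposite strand. The genes concerned had at most 7 counts in a library; the strand setting of the counting is not known.

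**Figure D5:**
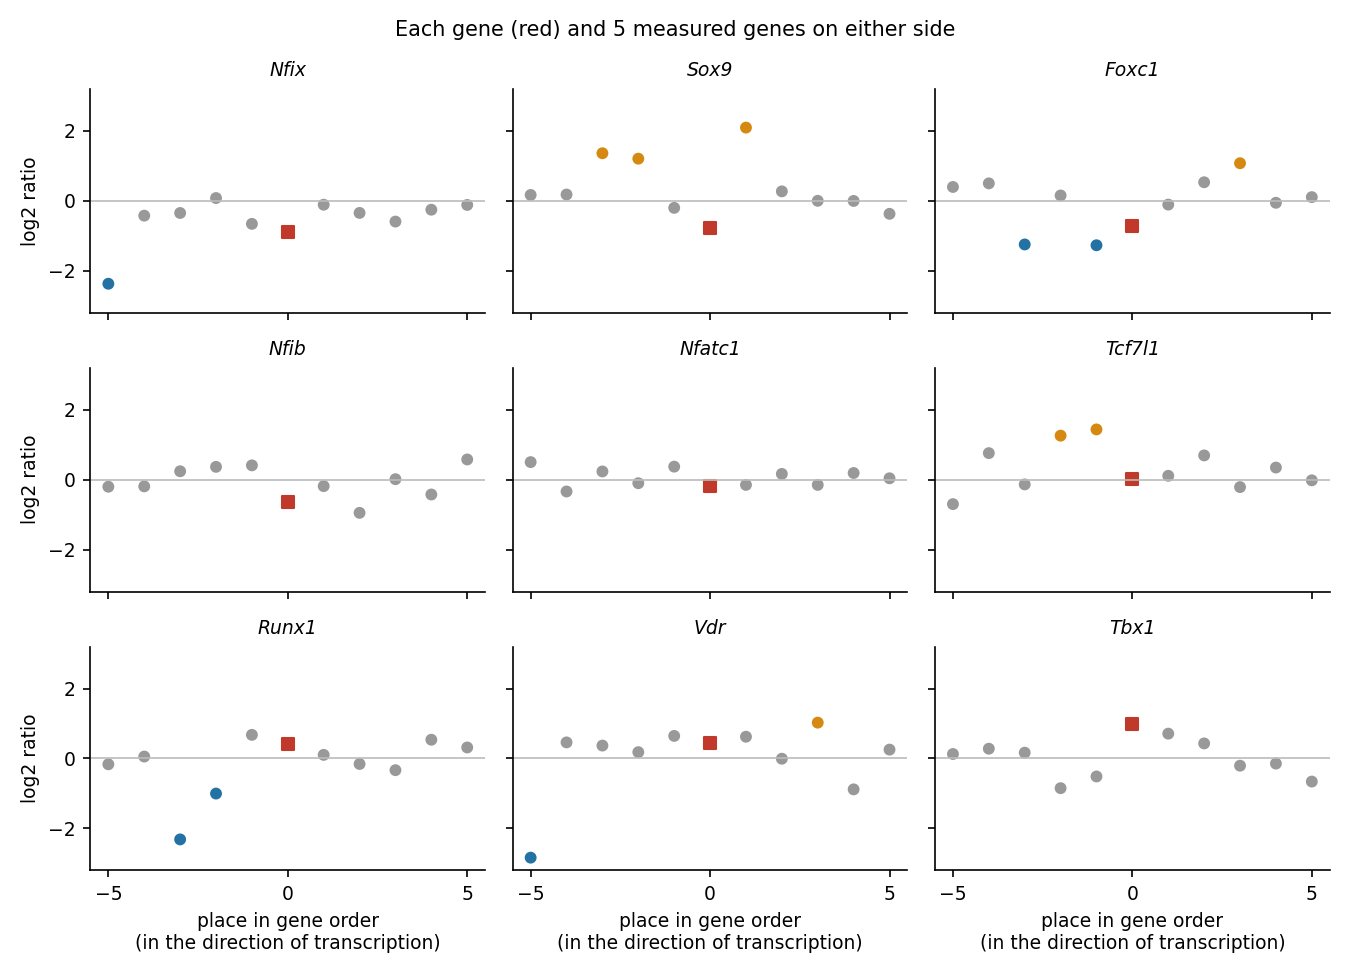
Each panel shows 1 transcription factor gene (red square) and 5 measured genes on either side (circles) by place in gene order (x axis) and log2 ratio of shcircSmad5 over empty vector (y axis). Orange and blue circles passed the size rule as higher and lower, and Ccdc184 near Vdr, at 0 counts in the hairpin library, is drawn as if it had 3; the blue circles beside Foxc1 are Foxq1 and Foxf2.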

How the data were processed

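Total RNA was extracted with Trizol, 3 µg per sample was depleted of ribosomal RNA, and strand-specific libraries followed (NEBNext Ultra Directional kit), per the labels' protocols. The submitters' processing notes name HISAT2, HTSeq 0.13.5, GRCm38 and GRCh38 with no roles. Annotation and strand setting: not given in the sources used here. In their table the authors deposited raw read counts per gene and FPKM values, per the file headers. The deposited FPKM equalled counts divided by column total and GENCODE M21 exon length for all 10 genes. All value columns were matched to a library (0 left over).

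TMM scaling came from edgeR 4.0.16 (R 4.3.3), and DESeq2 1.42.0 gave size factors for an alternative. A ratio's interval is the exact Clopper-Pearson one for how a gene's counts divide between the libraries, and that of an FPKM is the exact Poisson one. A count of 0 was set to 3 to place a ratio. Simulated data were used to test the size rule. Coordinates are GENCODE M21 on GRCm38, and promoters are RefSeq's. Named are the 10 genes and, from each of the other lists, the 4 most counted genes past the size rule (the 3 most counted where none passes), with paralogues of the 10 and neighbours past the rule. Of the genes so named, 1 is not reported here. Outside this rule, and chosen after their values were seen, are Cbfb, Ctnnb1, Homer3, Ppp3ca, Ppp3cb, Ppp3r1, Rcan1, Rxra, Hr, Cdk4 and Inhbb. So are Edn2, Klf5, Trp63, Gata6, Mycn, Angptl7, Npnt, Cd68, the neighbour Gm44146 and the genes at 0 counts. The 10 genes and all lists were chosen with earlier results of these data known.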

Additional observations from a re-analysis of the deposited data

How the results depend on the processing

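No replicate could be left out and no paired analysis was possible because each group had 1 library. Of the 9 measured genes, 0 passed the size rule, and this stayed 0 with DESeq2 size factors, with each chromosome centred, against the 10 nearest measured genes, with log2(FPKM + 1), with no count minimum, with a minimum of 100 counts and at a 3-fold limit. It was 1, namely Tbx1, with total counts, with upper quartile scaling, with totals that leave out mitochondrial genes and the top 20 genes, and with log2(FPKM + 0.1). At a 1.5-fold limit with TMM it was 5. Nfib fell short of that limit with total counts (log2 ratio -0.577), upper quartile scaling (-0.575) and totals without mitochondrial and top 20 genes (-0.563). It also fell short with each chromosome centred (-0.437) and against the 10 nearest measured genes (-0.451). With log2(FPKM + 0.1) and log2(FPKM + 1) its values were -0.573 and -0.541, again short of the limit. With DESeq2 size factors Nfib stayed past it (-0.627). Foxc1 fell short with each chromosome centred (-0.512), and Nfix against the 10 nearest measured genes (-0.501). The median log2 ratio of -0.18 stayed below 0 under all alternatives tried and was -0.081 with no count minimum, which lets Lhx2 in. Over 9 alternatives for each gene, 8 of the 9 genes kept their sign, and Tcf7l1 did not (-0.21 to 0.09). The 10 nearest genes here are those nearest by distance, not the 5 on either side used for the values above. Sox9 ranged from -0.86 to -0.69, Foxc1 from -0.85 to -0.51, Nfib from -0.64 to -0.44, Nfix from -0.88 to -0.50, Nfatc1 from -0.25 to -0.10, Runx1 from 0.31 to 0.50, Vdr from 0.14 to 0.53 and Tbx1 from 0.86 to 1.05. The counting interval of the log2 ratio holds 0 for Lhx2 and Tcf7l1 and spans the 2-fold limit for Tbx1, and the spread between cultures is unknown for all 10 genes.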
